A study of Mus musculus with 3 samples.

Results

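Pitx1, Pitx3, Barx1 and Barx2 are 4 of the 33696 genes counted in single cells of the mouse trunk between the third cervical and the second thoracic segment. They were picked by symbol, together with the cells they are described in, because earlier results of these same libraries had shown them to differ between muscle, mesenchyme and neural cells. Those levels are therefore given as a description. The study profiled 3 libraries, 1 each from E11.5, E12.5 and E13.5 embryos, and each library pooled cells of 3 littermates. The forelimbs and thoracic organs had been cut away, so the tissue holds somite and lateral plate derivatives with the neural tube, and the labels name no mutant allele, agent or strain. With 1 library per stage there is no replicate, no test was made, and every interval covers counting error only. Stage, library, litter and the sex mixture of the pool cannot be told apart.

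All 4 genes encode homeodomain transcription factors, which bind DNA through a helix-turn-helix fold. Pitx1 is known for hindlimb identity and for the pituitary and jaw, and Pitx3 for midbrain dopamine neurons, the lens and skeletal muscle. Barx1 is known from stomach mesenchyme, molar teeth and joints, and Barx2 from muscle precursors, cartilage and surface ectoderm. The homeobox is shown here because it is the sequence that places the 4 genes in their families. Each line is the 180 bases of the homeobox read 5′ to 3′ on the coding strand of a GENCODE vM21 transcript, and the capitals mark codon 50 of 60, the position known to weigh most in which bases a homeodomain prefers.
Pitx1: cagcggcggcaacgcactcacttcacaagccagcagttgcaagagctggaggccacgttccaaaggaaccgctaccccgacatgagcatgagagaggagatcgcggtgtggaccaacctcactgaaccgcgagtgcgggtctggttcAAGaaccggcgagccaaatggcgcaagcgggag
Pitx3: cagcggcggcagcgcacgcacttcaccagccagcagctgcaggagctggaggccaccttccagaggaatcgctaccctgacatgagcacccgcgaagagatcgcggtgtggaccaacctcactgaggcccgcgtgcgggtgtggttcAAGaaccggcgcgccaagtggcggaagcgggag
Barx1: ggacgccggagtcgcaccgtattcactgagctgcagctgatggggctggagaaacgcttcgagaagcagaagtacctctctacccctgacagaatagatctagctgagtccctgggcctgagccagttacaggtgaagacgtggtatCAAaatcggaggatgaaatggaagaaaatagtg
Barx2: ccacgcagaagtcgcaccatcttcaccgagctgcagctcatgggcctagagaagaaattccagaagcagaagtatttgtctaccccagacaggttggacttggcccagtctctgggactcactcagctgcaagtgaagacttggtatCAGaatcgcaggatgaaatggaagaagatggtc
Codon 50 read AAG in both Pitx genes, CAA in Barx1 and CAG in Barx2. The Pitx pair shared 158 of 180 bases, an identity of 87.8%, and the Barx pair shared 139, an identity of 77.2%. Across families the identity was 47.2% to 50%. The libraries counted the 3′ ends of transcripts, so the reads themselves do not come from this stretch. Gene coordinates of the count annotation are left out because the counts were made on GRCm39, and the promoter window printed further on is placed on GRCm38.p6.

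Cells with at least 4000 unique molecular identifiers (UMIs, 1 for each captured RNA molecule) were kept, 6131 at E11.5, 6019 at E12.5 and then 6947 at E13.5, after removal of damaged cells and called doublets. Their median depth was 10179 to 12334 UMIs. A cell belonged to a class when that class's markers held at least 3 UMIs and at least 80% of all class marker UMIs, and none of the 4 genes is such a marker. Muscle held 118, 259 and 382 cells at the 3 stages in order, mesenchyme 2443, 2616 and 3586, neural cells 2420, 1850 and 511, and epidermis 58, 94 and 284. In every library the median muscle cell had 54 to 95 UMIs of the muscle markers and 0 of the neural markers. Between 12.7% and 22.4% of cells met no class, and 9 to 16 cell barcodes were shared by each pair of libraries. Free RNA, estimated from globin in neural cells, was 2.24%, 2.36% and 22.5% of UMIs by stage. Globin in mesenchyme gave 2.14%, 3.71% and 11.4%, so the later estimates depend on the cells used. A UMI of Xist was found in 65.3%, 26.8% and 95.2% of cells at the successive stages. Values that move with these differences are given beside the results, and their part in the results was not tested.

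Among the named classes Pitx3 was read mostly in muscle, Barx1 in mesenchyme, Pitx1 in both, and Barx2 in epidermis and, from E12.5, in muscle. The muscle class held 48.7%, 59.7% and 57.6% of all Pitx3 UMIs by stage, and cells that met no class held 47.7%, 38.9% and 40.4%. Of those 93, 198 and 200 Pitx3 UMIs, 70, 175 and 167 were in cells led by muscle markers and 20, 9 and 18 in cells led by mesenchyme markers. Cells of no class also held 14.5% to 37.0% of the Pitx1 UMIs, 7.69% to 21.7% of those of Barx1 and 20.1% to 32.4% of those of Barx2. At E11.5 26.5% of the Barx2 UMIs, 22 in number, were in the 2443 mesenchymal cells. Neural cells held 0 to 5 UMIs of any of the 4 genes in any library, among 511 to 2420 cells. Endothelial cells held 0 UMIs of all 4 genes at every stage. Macrophages and erythroid cells, which are not known to use these genes and so show the level that free RNA can give, held 0 UMIs apart from 1 Pitx3 UMI in erythroid cells at E12.5 and 1 Barx2 UMI in macrophages at E13.5. In droplets without a cell, by contrast, the 4 genes stood at 0.174 to 5.20 CPM (UMIs of a gene scaled to a total of 1000000 in the group).

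**Figure D1:**
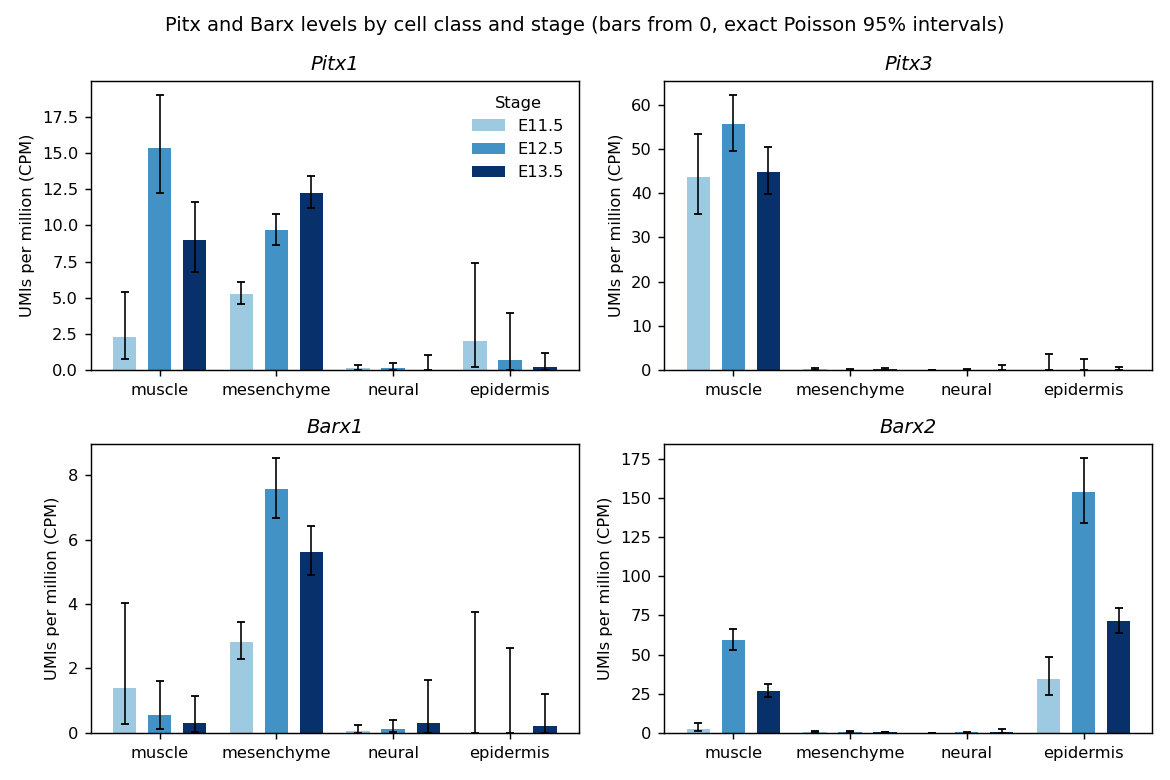
Level of each gene in CPM (vertical axis, from 0) in muscle, mesenchyme, neural cells and epidermis (horizontal axis) at the 3 stages (colours); bars are summed UMIs of 1 library and lines are exact Poisson 95% intervals. Pitx3 stands at 43.7 to 55.6 CPM in muscle and at 0.253 CPM or less in the other 3 classes, and the highest Barx2 level is 154 CPM in E12.5 epidermis.

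Pitx3 in muscle differed by less than 2-fold between stages. It stood at 43.7 CPM at E11.5 (95 UMIs, exact Poisson 95% interval 35.4 to 53.5), at 55.6 CPM at E12.5 (304 UMIs, 49.5 to 62.2) and then at 44.9 CPM at E13.5 (285 UMIs, 39.8 to 50.4). The log2 ratios were 0.35 (0.01 to 0.69) to E12.5 and -0.31 (-0.55 to -0.07) to E13.5. By summed UMIs E12.5 was thus the highest, by a small margin beyond counting error. The E13.5 level rose with free RNA subtracted by the neural estimate and with at most 5% mitochondrial UMIs, as given at the end. In mesenchyme it held 7, 5 and 10 UMIs in turn, 0.147 to 0.253 CPM, and in epidermis 0 UMIs at each stage. The ratio of muscle to mesenchyme was 217-fold at E11.5, 380-fold at E12.5 and then 177-fold at E13.5, or 7.76, 8.57 and 7.47 on the log2 scale. Among all genes with at least 20 UMIs, 7.90%, 5.89% and 6.37% were higher in muscle by 2-fold or more at these stages. The median log2 ratio of all genes was -0.35, -0.56 and -0.54.

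Muscle cells with Pitx3 were common but each held few molecules. A Pitx3 UMI was found in 52.5%, 65.3% and 48.7% of muscle cells at the successive stages, and in 16.9%, 17.0% and 14.1% once every cell was thinned to 4000 UMIs. The thinned Clopper-Pearson 95% intervals, 10.7 to 25.0%, 12.6 to 22.1% and 10.8 to 18.0%, overlap. No muscle cell held more than 8 Pitx3 UMIs. In mesenchyme the thinned share was 0 to 0.123% and in neural cells 0 of 2420, 0 of 1850 and 0 of 511 cells. Taking 3 cells as the limit for a count of 0 allows shares of up to 0.124%, 0.162% and 0.587%, and the Clopper-Pearson upper limits are 0.152%, 0.199% and 0.719%.

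Pitx3 was read at every step of muscle differentiation. Muscle cells were split by the share of their UMIs in 12 sarcomere genes, under 0.5%, 0.5% to 2% and above 2%. A set of progenitors was added after the data had been seen, cells with at least 2 UMIs of Pax7, the marker of muscle progenitors, none of Myog, which marks committed myocytes, and at most 1 neural marker UMI. Of these cells 1, 7 and 27 by stage also belong to the muscle class. At E12.5 Pitx3 stood at 37.4 CPM in 53 progenitors (27.7 to 49.4) and at 60.3 (51.8 to 69.8), 49.3 and 56.5 CPM in muscle of low, middle and high sarcomere share. The progenitor interval lies below that of low share and overlaps the other two. At E13.5 the same order gave 44.8, 52.1, 37.5 and 38.6 CPM. At E11.5 it gave 16.5 CPM (interval 9.60 to 26.4) in 49 progenitors, then 39.2, 66.0 and 35.8 CPM. The E11.5 progenitor interval lies below those of low and middle sarcomere share in that library and overlaps that of high share. In that E11.5 set 22.4% of cells also held a UMI of Pdgfra, a mesenchymal receptor, against 1.89% and 7.95% in the later sets, and Msc, a progenitor repressor, was found in 55.1% against every cell of the E12.5 set and 97.7% at E13.5.

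The sequence just before the Pitx3 start site is printed because Pitx3 has the largest ratio of muscle to mesenchyme among the 4 genes. RefSeq's GRCm38.p6 window holds chr19:46148326-46148575 on the minus strand, 250 bases that end at the start site, and the capitals mark CAGCTG, an E-box of the kind that MyoD-family factors are known to bind.
Pitx3 promoter: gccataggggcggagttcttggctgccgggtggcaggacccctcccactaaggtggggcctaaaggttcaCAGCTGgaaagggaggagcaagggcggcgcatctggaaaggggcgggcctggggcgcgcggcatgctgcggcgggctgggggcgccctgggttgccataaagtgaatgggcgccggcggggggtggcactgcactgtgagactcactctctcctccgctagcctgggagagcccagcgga
The motif stood once in this window, 180 bases before the start site, and the shorter form CANNTG, which includes it, stood at 2 places. Both forms read the same on either strand. Of 32851 RefSeq promoter windows of this length 13.0% hold CAGCTG and 66.2% hold CANNTG. The Barx1 window, the only other member's window in that table, held neither form. These are matches of letters and not sites shown to be bound.

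Muscle regulators listed with Pitx3 were mostly higher in the same class. Of 20 such genes, all 20 were measured in muscle against mesenchyme at E11.5, where 15 were higher by 2-fold or more and 2 lower. At E12.5 it was 14 and 2 of 19, and at E13.5 15 and 2 of 19. Among all genes 7.90%, 5.89% and 6.37% were higher and 25.0%, 35.4% and 36.9% lower. Of the 20 genes, 6 (Myf5, Myod1, Myog, Cdh15, Mymk and Chrna1) are markers of the muscle class, which fixes their direction. Without them 9 of 14, 8 of 13 and 9 of 13 were higher. The 5 genes whose levels over the 23 groups of class and stage with 50 or more cells were most like those of Pitx3 were Lincmd1, Neb, Myod1, Myo18b and 4930512H18Rik, with Pearson's r of log2(CPM + 10) from 0.998 to 0.999. Those groups share libraries and depth, and most of them hold no muscle. Myod1, the master regulator of the lineage, is itself a class marker. Of 13 listed genes of midbrain dopamine neurons and the lens, 5, 7 and 7 were measured in muscle against mesenchyme by stage, where 1 was higher at each stage and 3, 5 and 6 were lower by 2-fold or more. Slc6a3, the dopamine transporter, and Foxe3, a lens factor, held 0 UMIs in muscle and neural cells of every library. Ddc, which makes dopamine from its precursor, was the higher gene at each stage and stood in muscle at 33.2, 34.6 and 35.4 CPM against 8.55, 7.83 and 19.9 CPM in neural cells.

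Barx2 had 2 places, epidermis at all stages and muscle from E12.5. In muscle it was near absent at E11.5, 2.76 CPM from 6 UMIs (1.01 to 6.01), stood at 59.3 CPM at E12.5 (324 UMIs, 53.0 to 66.1) and then at 26.9 CPM at E13.5 (171 UMIs, 23.0 to 31.3). The 3 intervals do not overlap. The log2 ratio was 4.42 from E11.5 to E12.5 (exact conditional binomial 95% interval 3.29 to 5.88), or 21.5-fold, and fell by 1.14 to E13.5 (-1.42 to -0.87). Of the 3 genes measured in muscle between E11.5 and E12.5, Barx2 and Pitx1 were higher by 2-fold or more, where 3.23% of all genes were. From E12.5 to E13.5 Barx2 alone was lower by that much, where 4.34% of all genes were. The fall at E13.5 is no longer 2-fold when Xist-positive cells free of Y-linked UMIs are used (-0.61), with at most 5% mitochondrial UMIs (-0.73) or after subtraction of free RNA estimated from neural cells (-0.86). With free RNA estimated from mesenchyme it was -1.04.

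Barx2 in muscle sat in fewer cells than Pitx3, each with more molecules. At E12.5 46 of the 259 muscle cells held 3 or more UMIs and together 86.1% of the Barx2 UMIs of the class, with up to 23 in 1 cell. At E13.5 26 cells held 70.2%. The thinned share of muscle cells with a UMI was 0.847%, 12.7% and 6.28% at the successive stages, and 2.54%, 30.5% and 16.5% with all UMIs. The thinned intervals at E12.5 and E13.5, 8.94 to 17.4% and 4.07 to 9.20%, overlap narrowly. At E12.5 Barx2 was highest in muscle of low sarcomere share. It stood there at 80.1 CPM (70.3 to 91.0), against 47.3 CPM in the Pax7 progenitors (36.3 to 60.7) and 32.7 and 31.9 CPM at middle and high share, and the progenitor interval overlaps the last pair. At E13.5 the order gave 27.4, 31.8, 15.2 and 27.2 CPM, with only 12 UMIs in the last set.

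**Figure D2:**
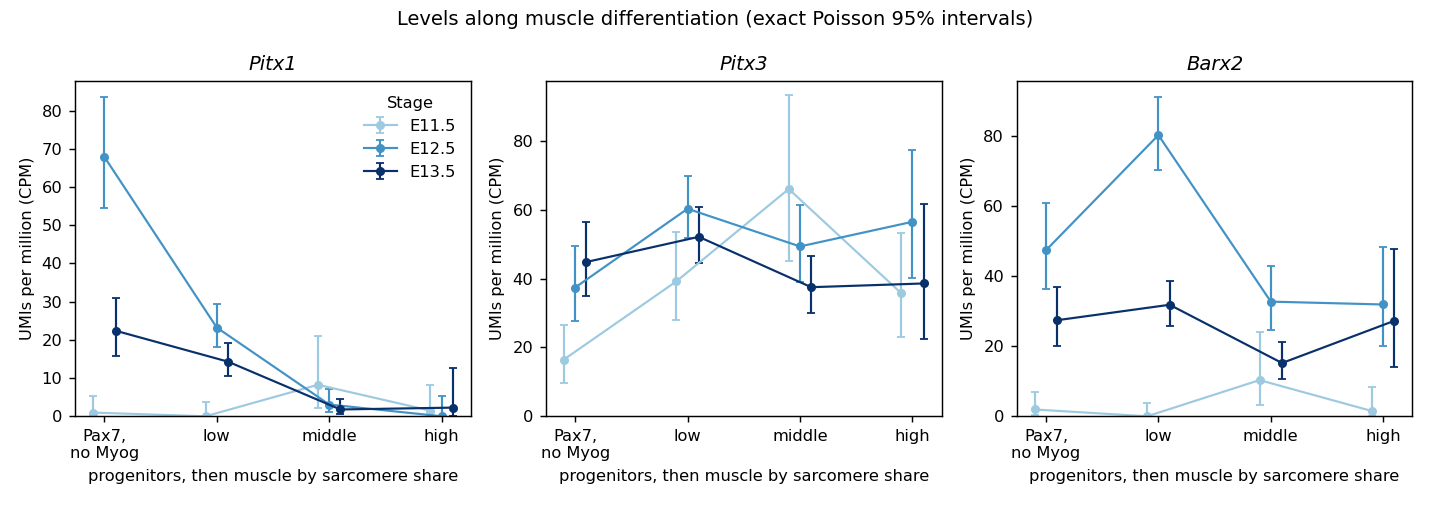
Pitx1, Pitx3 and Barx2 in CPM (vertical axis, from 0) in Pax7 progenitors without Myog and in muscle cells of low, middle and high sarcomere share (horizontal axis), by stage (colours); points are summed UMIs of 1 library and lines exact Poisson 95% intervals. Pitx1 at E12.5 goes from 67.9 CPM in progenitors to 0 UMIs at high sarcomere share, and Pitx3 stays between 37.4 and 60.3 CPM at that stage.

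In epidermis Barx2 reached the highest level of any of the 4 genes. It stood at 34.7 CPM at E11.5 (34 UMIs, 24 to 48.5), 154 CPM at E12.5 (215 UMIs, 134 to 176) and then 71.4 CPM at E13.5 (331 UMIs, 63.9 to 79.5). By summed UMIs the highest library is E12.5 and these intervals do not overlap. The log2 ratio was 2.15 (1.62 to 2.71) from E11.5 to E12.5, where 6.31% of all genes were higher by 2-fold or more, and -1.11 (-1.36 to -0.85) to E13.5, where 8.03% were lower. The difference was under 2-fold with the mean CPM of single cells (-0.84), with size factors (-0.98) and with free RNA subtracted by either estimate (-0.80 and -0.997). Thinned to 4000 UMIs, 6.90%, 37.2% and 27.8% of epidermal cells held a UMI, against 0.153% to 0.450% of mesenchyme. The intervals of the E12.5 and E13.5 epidermal shares, 27.5 to 47.8% and 22.7 to 33.4%, overlap. Only 58 and 94 epidermal cells stand behind the earlier stages. Epidermis was above mesenchyme by 54.9-fold, 238-fold and 148-fold, where 11.1%, 9.39% and 9.43% of all genes were higher by 2-fold or more.

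Over the 23 groups the genes most like Barx2 were Kremen2, a Wnt co-receptor partner (r of 0.93), Tdrd1, Trp63, Klf5 and Lama5 (0.87 or above). Trp63, which specifies stratified epithelium, is a marker of the class. Among the 79 thinned E13.5 epidermal cells with a Barx2 UMI, Fabp7, a fatty acid carrier, had the largest ratio over the other cells, 222 against 34.1 CPM, a log2 ratio of 2.70 (2.05 to 3.39). It was read in 15.2% of the cells with Barx2 and 11.7% of those without, so the ratio lies in a few cells with many UMIs. Krt14, a keratin of the basal layer, was found in 96.2% and 94.1% of these cells. Of cartilage genes listed with Barx2, Sox9 was read in 2.53% of epidermal cells with Barx2 and 4.88% of those without, with overlapping intervals.

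Pitx1 was read in both mesenchyme and muscle. In mesenchyme it stood at 5.29 CPM at E11.5 (184 UMIs, 4.56 to 6.12), 9.67 CPM at E12.5 (330 UMIs, 8.66 to 10.8) and then 12.2 CPM at E13.5 (484 UMIs, 11.2 to 13.4). By summed UMIs over all cells each stage lies above the one before it, beyond counting error that takes UMIs as independent. The thinned shares of cells with a Pitx1 UMI were 1.02% (0.663 to 1.51%), 1.83% (1.36 to 2.43%) and 2.43% (1.95 to 2.98%). Those intervals overlap from each stage to the next. The log2 ratios of the CPM were 0.87 (0.61 to 1.14) and 0.34 (0.14 to 0.55), neither past 2-fold. Among Xist-positive cells free of Y-linked UMIs the former was 1.57 and the latter turned to -0.11.

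In muscle Pitx1 took another course. It stood at 2.30 CPM at E11.5 (5 UMIs in 2 cells), 15.4 CPM at E12.5 (84 UMIs, 12.3 to 19.0) and then 8.97 CPM at E13.5 (57 UMIs, 6.79 to 11.6). The log2 ratios were 2.74 (1.46 to 4.40) and -0.78 (-1.29 to -0.27). The thinned shares of muscle cells with a Pitx1 UMI were 0.847% (0.0215 to 4.63%), 5.79% (3.28 to 9.37%) and 2.36% (1.08 to 4.43%). Those intervals overlap from each stage to the next. Against mesenchyme the muscle level was lower at E11.5 by a log2 ratio of -1.20 (-2.84 to 0.05), higher at E12.5 by 0.67 (0.30 to 1.02) and lower at E13.5 by -0.45 (-0.87 to -0.05). Of all genes, 25.0% were lower in muscle by 2-fold or more at E11.5. The direction at E12.5 depends on which cells are counted. Cells led by muscle markers that met no class held 190 Pitx1 UMIs at E12.5, 50.2 CPM in 184 cells. With those cells in, the E12.5 muscle level was 30.1 CPM and the muscle to mesenchyme ratio 1.68, and with a marker share of at least 95% they were 7.48 CPM and -0.70. In Xist-positive cells free of Y-linked UMIs the ratio was -0.46.

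At E12.5 Pitx1 in the muscle lineage was highest in progenitors. In that library the 53 Pax7 progenitors stood at 67.9 CPM (89 UMIs, 54.5 to 83.6), muscle of low sarcomere share at 23.2 CPM (69 UMIs, 18.1 to 29.4), of middle share at 3.08 CPM (5 UMIs) and of high share at 0 UMIs in 30 cells, which allows up to 4.34 CPM at a limit of 3 UMIs and 5.34 CPM by the Poisson interval. At E13.5 the same order gave 22.4 CPM (15.7 to 31.0), 14.3 CPM (10.4 to 19.1), 1.79 and 2.27 CPM. The E12.5 intervals of the first 3 sets are apart. At E13.5 the intervals of progenitors and low share overlap and both lie above that of middle share. At E11.5 the progenitors held 1 UMI and low sarcomere muscle none.

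Muscle cells with Pitx1 also tended to hold Barx2. At E12.5 a Barx2 UMI was found in 24 of 35 cells with Pitx1, 68.6% (50.7 to 83.1%), against 24.6% (19.1 to 30.7%) of 224 cells without. At E13.5 it was 15 of 29, 51.7% (32.5 to 70.6%), against 13.6% (10.2 to 17.6%) of 353. The intervals do not overlap at either stage. Thinned to 4000 UMIs the E12.5 shares were 26.7% of 15 cells and 11.9%, with overlapping intervals (7.79 to 55.1% and 8.11 to 16.6%). At E13.5 they were 55.6% of 9 cells (21.2 to 86.3%) and 5.09% (3.09 to 7.84%). Pitx3 was found at E12.5 in 74.3% of cells with Pitx1 and 63.8% of those without, with overlapping intervals. Muscle cells with Barx2 were also deeper, with a median of 22872 against 18388.5 UMIs at E12.5 and 19156 against 14648 at E13.5. Among the 3 sarcomere shares at E12.5 both genes were found most often at low share. Over low, middle and high share Pitx1 was in 20%, 4.60% and 0% of cells and Barx2 in 37.0%, 21.8% and 30.0%. In the E12.5 Pax7 progenitors Pitx1 was in 47.2% and Barx2 in 22.6% of cells. The part of depth and of sarcomere share in the unthinned shares was not tested.

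**Figure D3:**
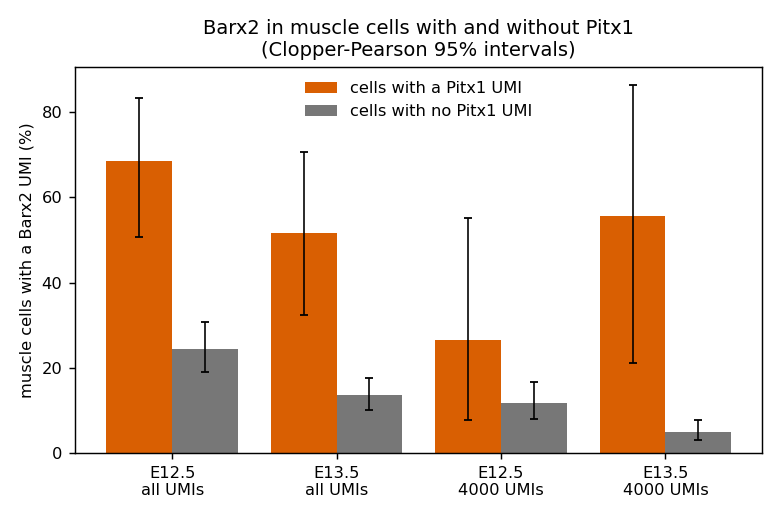
Share of muscle cells with a Barx2 UMI (vertical axis, percent from 0) among cells with and without a Pitx1 UMI (colours) at E12.5 and E13.5, with all UMIs and after thinning to 4000 UMIs (horizontal axis); lines are Clopper-Pearson 95% intervals. With all UMIs 68.6% and 51.7% of cells with Pitx1 hold Barx2, against 24.6% and 13.6%, and the thinned bars rest on 15 and 9 cells with Pitx1.

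Pitx1 in mesenchyme was held by few cells at high level. Cells with 3 or more UMIs, 22, 32 and 64 at the successive stages, carried 77.7%, 76.1% and 76.2% of the mesenchymal Pitx1 UMIs, and single cells held up to 34, 39 and 28. For Barx1 the like shares were 29.6%, 53.5% and 46.4%. The thinned share of mesenchymal cells with a Pitx1 UMI was 1.02%, 1.83% and 2.43% in stage order, and 2.25%, 3.56% and 4.10% with all UMIs.

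Gata6, Runx1 and Acta2 were read more often in mesenchymal cells with Pitx1 than in the rest. Gata6, a factor of lateral plate and visceral mesoderm, was read in 72.0% of thinned cells with Pitx1 at E11.5 (50.6 to 87.9%), 43.8% at E12.5 (29.5 to 58.8%) and then 49.4% at E13.5 (38.5 to 60.4%). In cells without Pitx1 it was read in 9.06%, 7.55% and 13.9%. Runx1, a factor best known from blood, was read in 20.0%, 25.0% and 28.7% of cells with Pitx1 and in 2.36%, 8.14% and 7.29% of the rest. Acta2, smooth muscle actin, stood at 76%, 45.8% and 57.5% against 6.70%, 14.4% and 21.5%. For each of these 3 genes the intervals of cells with and without Pitx1 are apart at all stages. Gata6 was also read more often in cells with Barx1 at E11.5 (36% against 9.43%) and E12.5 (20.3% against 7.94%).

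Zic1 was scarce in the same cells. This gene marks dorsal somite derivatives and was read in 0 of 25, 0 of 48 and 1.15% of cells with Pitx1 against 31.4%, 22.6% and 17.0% of the others. Foxd1 was read in 0, 2.08% and 3.45% against 35.6%, 19.4% and 7.29%, and Pax1, of the sclerotome, in 0, 2.08% and 1.15% against 14.0%, 8.84% and 5.32%. Counting intervals of cells with and without Pitx1 overlap for Pax1 at every stage and for Foxd1 at E13.5. Of 28 listed genes of mesenchymal subtypes, 23 were measured at E13.5, meaning read in at least 5% of cells with or without Pitx1. In cells with Pitx1, 6 of these had a share at least 2-fold higher (Scx, Runx1, Runx2, Alx1, Gata6 and Wt1) and 8 a share at least 2-fold lower (Pax1, Dpt, Foxd1, Tbx18, Tbx15, Osr1, Osr2 and Zic1). Among all genes 4.38% were higher and 5.72% lower by that rule. At E12.5 it was 5 and 5 of 22 genes, where 6.72% and 9.24% of all genes were higher and lower. The list of 14 hindlimb and lateral plate genes was split by the same rule. By stage 6, 6 and 8 of them were measured. In cells with Pitx1, 3 had a higher share at each stage, and 2, 1 and 3 a lower share. At E11.5, where only 25 cells held Pitx1, 919 of all 7993 genes were higher and 1166 lower by that rule. Runx1 was higher each time, with Hand1 and Hand2 at E11.5, Tbx5 and Hand2 at E12.5, and Hand1 and Hoxc9 at E13.5. Emx2 was lower at every stage, Osr1 at the first and last, and Osr2 at the last.

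Contractile genes led the E13.5 ranking. By the lower 95% bound of the ratio, the 8 genes that ranked first in 87 cells with Pitx1 included Actg2, Acta2, Cnn1, Myl4, Tagln, Runx1 and Tgfb2. Actg2, the enteric smooth muscle actin, had a log2 ratio of 5.33 (4.41 to 6.25) and was read in 13.8% of cells with Pitx1 and 0.514% of the others. Acta2 had 3.74 (3.62 to 3.86), Tagln, an actin-binding protein of smooth muscle, 2.95 (2.78 to 3.12), and Cnn1, calponin, 4.01 (3.29 to 4.68). At E12.5, where 48 cells fell short of the 50 required, Acta2 (2.80), Gata6 (2.53) and Tagln (1.98) again stood among the first 8. The mural class, defined by Rgs5, Kcnj8, Abcc9 and Higd1b, held 0 Pitx1 UMIs in its 1, 5 and 5 cells by stage. Its Poisson upper limits, 294, 54.3 and 85.8 CPM, lie above the Pitx1 level of mesenchyme. These counts therefore cannot place Pitx1 in or out of that class.

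Other listed homeobox genes were mostly lower in mesenchyme at the later stages, where Pitx1 was higher. Of 8 measured among 12 listed genes, 5 were lower by 2-fold or more from E11.5 to E12.5 and 1 was higher, with a median log2 ratio of -1.14. From E12.5 to E13.5 it was 5 and 0 of 8, with a median of -1.31. Over all genes those 2 steps had 2.28% and 5.18% lower by 2-fold or more, and medians of 0.14 and -0.09.

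Hoxc11, Hoxc10 and Tbx4, genes known from the hindlimb, stood low in this forelimb-level tissue. Hoxc11 held 0 UMIs in mesenchyme at all stages, Hoxc10 held 0, 0 and 30, and Tbx4, the hindlimb T-box gene, stood at 1.96, 2.52 and 1.39 CPM. Tbx5, its forelimb counterpart, stood at 45.2, 44.8 and 26.2 CPM. At E12.5 Tbx5 was read in 39.6% of cells with Pitx1 (25.8 to 54.7%) and 12.1% of the others, and at E13.5 in 9.20% and 9.12%. Tbx4 was read in 0 of 48 and 1.15% of cells with Pitx1 at those stages. Of the 14 genes of this list 12 were measured in mesenchyme between E11.5 and E12.5, where 4 were higher by 2-fold or more and 4 lower, with a median of 0.02. Of all 15515 genes 1933 were higher and 354, or 2.28%, lower in that step.

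**Figure D4:**
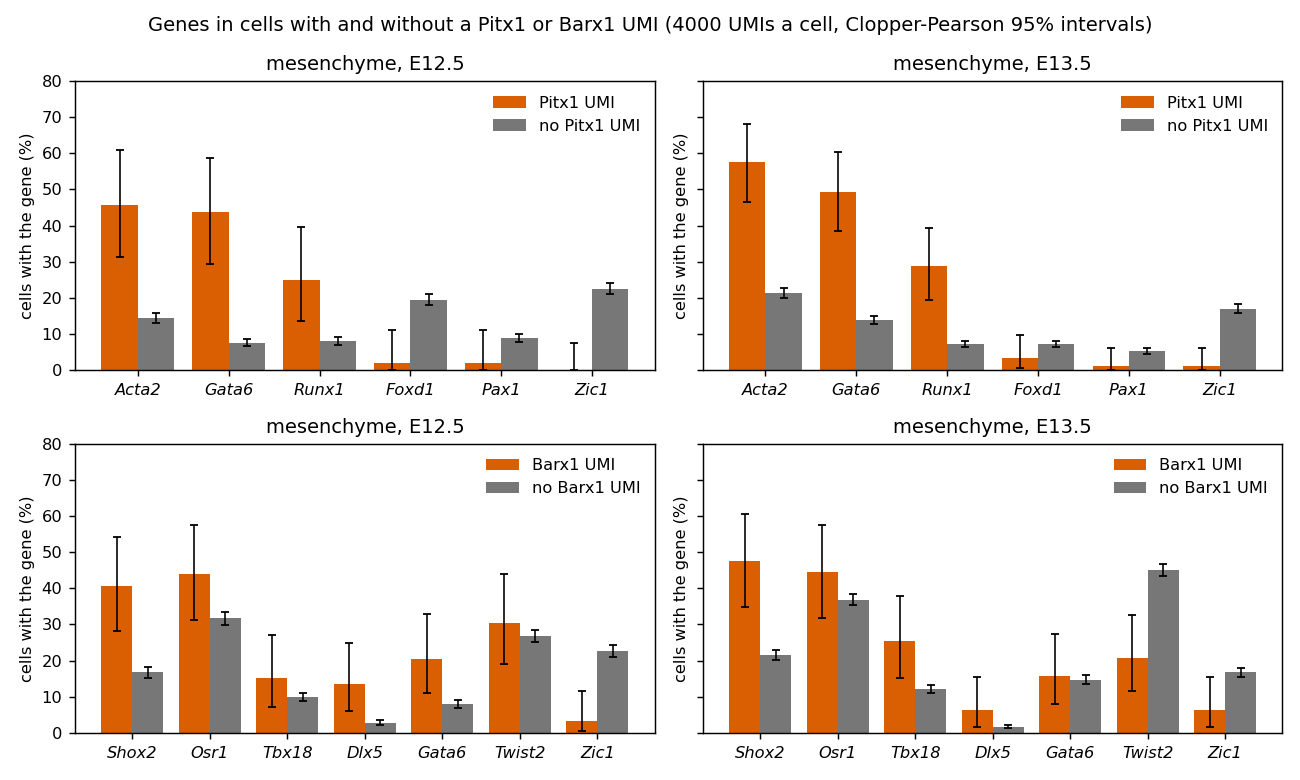
Share of mesenchymal cells with each gene (vertical axis, percent from 0) among cells with and without a Pitx1 UMI (top) or a Barx1 UMI (bottom), at E12.5 (left) and E13.5 (right), all cells thinned to 4000 UMIs; lines are Clopper-Pearson 95% intervals. At E13.5 Acta2 is read in 57.5% of cells with Pitx1 against 21.5%, and Twist2 in 20.6% of cells with Barx1 against 45.2%.

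Barx1 was read in mesenchyme and was highest there at E12.5. It stood at 2.82 CPM at E11.5 (98 UMIs, 2.29 to 3.44), 7.56 CPM at E12.5 (258 UMIs, 6.67 to 8.54) and then 5.62 CPM at E13.5 (222 UMIs, 4.90 to 6.4). These 3 intervals of summed UMIs do not overlap, with E12.5 the highest and E11.5 the lowest. The thinned shares of cells with a Barx1 UMI at E12.5 and E13.5, 2.26% (1.72 to 2.90%) and 1.76% (1.35 to 2.24%), have overlapping intervals. The log2 ratios of the CPM were 1.42 (1.08 to 1.77) and -0.43 (-0.69 to -0.16). Of the 3 genes measured in mesenchyme, Barx1 alone was past 2-fold from E11.5 to E12.5, as were 1933 of all 15515 genes measured in that step and direction. None was past it to E13.5, where 4.09% of all genes were higher. Barx2 was the third gene, at 0.633, 0.645 and 0.481 CPM. Muscle held 3, 3 and 2 Barx1 UMIs, and the muscle level was 2.04-fold lower at E11.5, with a log2 ratio of -1.03 whose interval (-3.33 to 0.56) spans 0. It was lower by 13.8-fold at E12.5 and then 17.8-fold at E13.5, where 35.4% and 36.9% of all genes were lower by 2-fold or more.

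Neural cells lay far below mesenchyme for both mesenchymal genes. For Barx1 the ratio was 40.2-fold lower at E11.5 from 2 UMIs, 65.7-fold at E12.5 from 2 and 19.1-fold at E13.5 from 1, with wide intervals on the log2 scale (-8.40 to -3.44, -9.09 to -4.17 and -9.57 to -1.77). For Pitx1 it was 37.7-fold lower at E11.5 and 56.0-fold at E12.5. At E13.5 neural cells held 0 Pitx1 UMIs, at least 13.9-fold lower with 3 UMIs put in the place of 0. Of all genes 14.6%, 21.8% and 25.5% were lower in neural cells by 2-fold or more at the 3 stages.

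Shox2 was read more often in cells with Barx1 than in the rest at both later stages. Thinned, 1.02%, 2.26% and 1.76% of mesenchymal cells held a Barx1 UMI. Shox2, a homeobox gene of proximal limb and of neck mesenchyme, was read in 40.7% of cells with Barx1 at E12.5 (28.1 to 54.3%) and then 47.6% at E13.5 (34.9 to 60.6%), against 16.7% and 21.5% of the others. Tbx18 was read in 25.4% (15.3 to 37.9%) against 12.1% at E13.5, and in 15.3% against 9.82% at E12.5, where the intervals overlap. Zic1 was again low, 3.39% and 6.35% against 22.6% and 16.8%. Twist2, a dermal repressor, had overlapping intervals at E12.5, 30.5% against 26.8%, and stood at 20.6% (11.47 to 32.7%) against 45.2% at E13.5.

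The genes ranked first with Barx1 differed between the later stages. At E12.5, in 59 cells, the first 8 included Hoxa2 (log2 ratio 1.53), Zfp652, Hmx1, Tbx18, Mbd2, Ebf1 and Zfp703. At E13.5, in 63 cells, they were Ntrk3, a neurotrophin receptor (2.94, 2.29 to 3.53), Cxcl13, Apod, Shox2, Dkk2, Tcf7l2, Fgf7 and Kif23. No gene stood in both lists. Hoxa2, which patterns the hindbrain and branchial arches, was read at E12.5 in 37.3% of cells with Barx1 and 16.9% of the others. Hmx1 was read there in 10.2% and 9.23%, so its ratio lies in a few cells with many UMIs. Over the 23 groups Wnt11 was most like Barx1 (r of 0.95), followed by Angptl1, Aebp1, C1qtnf7 and Epyc. The highest Barx1 level among these groups was 7.56 CPM, below the 10 CPM added before the log, and most groups hold no mesenchyme.

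The foregut, tooth and joint genes known with Barx1 were in part present in its cells. Of 19 listed genes 8 were measured at E12.5, and 4 of them, Gata6, Dlx2, Dlx5 and Fgf10, had a share at least 2-fold higher in cells with Barx1, where 5.44% of all genes did. At E13.5 it was 2 of 6, Dlx5 and Fgf10, where 4.52% did. Dlx5, an arch and bone factor, was read in 13.6% (6.04 to 25.0%) against 2.74% at E12.5. Nkx2-5 was read in no cell with Barx1 at any stage, and Nkx3-2, of the stomach and axial skeleton, in 0 of 59 cells at E12.5. Of 28 genes of mesenchymal subtypes, 3 of 22 were higher and 4 of 22 lower by 2-fold at E13.5, where 4.52% and 6.40% of all genes were.

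Pitx1 and Barx1 met in few mesenchymal cells. Barx1 was found with all UMIs in 8 of 55 cells with Pitx1 at E11.5, 14.5% (6.50 to 26.7%), and in 13 of 93 at E12.5, 14.0% (7.66 to 22.7%), against 2.55% and 4.40% of the others. At E13.5 it was 3 of 147, 2.04% (0.423 to 5.85%), against 3.26%. The shares with Pitx1 lay above the others at both earlier stages beyond the intervals and did not at E13.5. The cells with Pitx1 were deeper than the rest at every stage, with medians of 17251 against 13074 UMIs, 13293 against 11779 and 13121 against 9794. Thinned, the shares were 4.00% of 25 cells against 0.993%, 8.33% of 48 (2.32 to 20.0%) against 2.14%, and 1.15% of 87 against 1.77%, and all 3 pairs of intervals overlap.

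In order of level across the main classes, Barx2 in epidermis came first at E12.5, then Barx2 and Pitx3 in muscle at 59.3 and 55.6 CPM, whose intervals overlap. Pitx1 in muscle followed at 15.4, then Pitx1 and Barx1 in mesenchyme at 9.67 and 7.56 CPM, whose intervals are apart by a narrow gap. That order holds for summed UMIs only. The mean CPM of single cells, given at the end, put Barx1 above Pitx1 in this mesenchyme. Thinned, Barx1 was read in 2.26% of these cells and Pitx1 in 1.83%, with overlapping intervals. All of these are counts of 3′ ends, 1 per molecule, so no scaling by gene length was made. At E13.5 the order was Barx2 in epidermis, Pitx3 in muscle, Barx2 in muscle, Pitx1 in mesenchyme, Pitx1 in muscle and Barx1 in mesenchyme. The intervals of Pitx1 in mesenchyme and muscle overlap. By the mean CPM of single cells Barx1 in mesenchyme stood above Pitx1 in muscle at that stage.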

How the data were processed

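Single-cell RNA was captured with 10x Genomics 3′ chemistry, version 3.1, per the labels' protocols. The authors deposited UMI counts per gene and barcode, made with Cell Ranger 8.0.1 on GRCm39, per the submitters' processing notes. The annotation and filters are not given in the sources used here, and the files list all barcodes. The libraries hold 94155624 to 113402193 UMIs.

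Kept barcodes had 4000 or more UMIs, 500 or more genes and at most 10% mitochondrial UMIs. Scrublet (scanpy 1.11.5) called 1.97% to 2.88% of these doublets, which were removed. Levels are summed counts scaled to 1000000 (CPM) with exact Poisson intervals, and ratios have exact conditional binomial intervals. Shares have Clopper-Pearson intervals after thinning each cell to 4000 UMIs. A difference is named when past 2-fold, among genes with 20 or more UMIs. The ratio step was tested on simulated data. Python 3.11.15, numpy 2.4.6, scipy 1.17.1 and pandas 2.3.3 were used.

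The members and gene lists were chosen with earlier results of these data known. Named genes are the members, from each list at most 4 with the highest level or largest ratio plus those at 0 UMIs, the 5 most like a member, and the 8 first by the lower bound of the ratio in cells with a member, in libraries with at least 50 such cells. The sequences come from GENCODE vM21 transcripts and RefSeq promoter windows of GRCm38.p6, which held 2 of the 4 members. Alternatives covered the depth, mitochondrial, doublet and class limits, free RNA, sex of the cells, scaling, thinning and sarcomere limits. The class of the leading markers with no minimum share, free RNA estimated from mesenchyme, the Pax7 progenitor set and the E12.5 ranking of Pitx1 were added after seeing the data. Genes outside these rules that are named with values (Zic1, Foxd1, Pax1, Acta2, Tbx18, Twist2, Hoxa2, Krt14, Sox9 and Fabp7 among them) come from the fixed lists or rankings and were chosen after their values were seen. Some listed or ranked genes are not reported here.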

Additional observations from a re-analysis of the deposited data

Results flagged for a closer look

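By summed UMIs Pitx1 took opposite courses in its 2 classes between E12.5 and E13.5. The log2 ratio was 0.34 in mesenchyme and -0.78 in muscle. The counting intervals (0.14 to 0.55 and -1.29 to -0.27) lie on opposite sides of 0 but take UMIs as independent. At E13.5, 4 muscle cells held 50.9% of the Pitx1 UMIs of their class. The intervals of the thinned shares of cells with a Pitx1 UMI overlap between E12.5 and E13.5 in both classes. Each stage is 1 library, so the difference between the classes was not tested. Among Xist-positive cells free of Y-linked UMIs the mesenchymal ratio was -0.11, so the opposite directions were not seen there.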

How the results depend on the processing

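No paired analysis was possible because each stage is 1 library. Of 334 log2 ratios recomputed under an alternative, 316 kept their direction and their side of 2-fold, 11 fell short of it, 4 passed it and 3 changed sign. The 3 are all of Pitx1, and none was 2-fold with either sign. The cause of the changes was not tested. With at most 5% mitochondrial UMIs the E13.5 to E12.5 ratio of Barx2 in muscle was -0.73 and the E11.5 muscle to mesenchyme ratio of Barx1 was -0.89. That limit moved the CPM of Pitx1 in E12.5 mesenchyme to 10.8, and at E13.5 those of Pitx3, Barx2 and Pitx1 in muscle to 51.9, 36.3 and 13.2 and that of Barx2 in epidermis to 79.6. With 8000 or more UMIs per cell Pitx1 and Barx1 in E13.5 mesenchyme stood at 13.7 and 4.26 CPM.

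With a class share of at least 95% the muscle to mesenchyme ratios were -0.99, -0.70 and -1.62 for Pitx1 by stage, against 0.67 at E12.5 in the report. That of Barx1 at E11.5, with no UMI left in muscle, was -0.074 with 3 UMIs put for 0, and is no estimate. Levels were then 6.64 and 12.2 CPM for Pitx1 in mesenchyme of the first 2 stages, 42.4 and 18.1 for Barx2 and 7.48 and 4.21 for Pitx1 in muscle of the last 2, and 189 for Barx2 in E12.5 epidermis. With the class of the leading markers, an alternative chosen after seeing the data, Pitx1 in muscle had ratios of -1.49 (E13.5 to E12.5) and 1.68 (to mesenchyme at E12.5) and 30.1 CPM at E12.5. In Xist-positive cells free of Y-linked UMIs the ratios were 1.57 for Pitx1 in mesenchyme (E12.5 to E11.5), -0.61 for Barx2 in muscle (E13.5 to E12.5), -0.11 for Pitx1 in mesenchyme (E13.5 to E12.5), -0.46 for Pitx1 in E12.5 muscle to mesenchyme, and -0.95 for it at E11.5, with 0 UMIs in that muscle and 3 put for 0. Levels were 4.41 and 13.1 CPM for Pitx1 in E11.5 and E12.5 mesenchyme, 6.34 for Barx1 in E12.5 mesenchyme, 41.3 and 9.54 for Barx2 and Pitx1 in E12.5 muscle, and 22.3 for Barx2 in E11.5 epidermis.

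With the mean CPM of single cells the Barx2 ratio in epidermis (E13.5 to E12.5) was -0.84, with size factors -0.98 and with free RNA subtracted -0.80. Estimating free RNA from mesenchyme, chosen after seeing the data, gave -0.997 and 79.95 CPM at E13.5. The neural estimate gave -0.86 for Barx2 in muscle over the same step, and at E13.5 14.6 CPM for Pitx1 in mesenchyme, 56.5 and 33.4 for Pitx3 and Barx2 in muscle, and 90.7 for Barx2 in epidermis. Means of single cells gave 4.10, 8.05 and 9.89 CPM for Pitx1 in mesenchyme by stage, 8.77 and 7.04 for Barx1 there from E12.5, 51.8 and 23.0 for Barx2 and 11.4 and 6.71 for Pitx1 in muscle from E12.5, and 81.3 for Barx2 in E13.5 epidermis. Sarcomere limits of 1% and 4% moved Barx2 in E11.5 muscle of low and middle share to 4.01 and 0 CPM, Pitx1 at E12.5 and middle share to 0, Barx2 at E12.5 and low share to 68.5, and Barx2 at E13.5 and high share to 53.6 on 6 cells.

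Shares of cells follow the depth used. With no thinning, by stage, Pitx1 in mesenchyme was read in 2.25%, 3.56% and 4.10%, Barx1 there in 2.82%, 4.74% and 3.21%, Pitx3 in muscle in 52.5%, 65.3% and 48.7%, and Barx2 in epidermis in 29.3%, 61.7% and 56.0%. From E12.5 Barx2 in muscle was read in 30.5% and 16.5% and Pitx1 in 13.51% and 7.59%. At 2000 UMIs these were 0.614%, 1.11% and 1.25%, then 0.573%, 1.22% and 0.864%, then 6.78%, 10.8% and 7.59%, and 15.1% for Barx2 in E13.5 epidermis. Barx2 in muscle was then read in 0, 8.11% and 2.62% and Pitx1 in E12.5 muscle in 3.09%. Another seed moved none of 18 shares beyond its interval.

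Background counts depend on the rule. Between E11.5 and E12.5, 1933 genes were higher in mesenchyme by 2-fold, 589 by 4-fold and 4896 with no UMI minimum. For muscle against mesenchyme at E12.5 the counts were 872, 465 and 2092 higher and 5243, 2883 and 9866 lower. Of the 30 counts under the 4-fold rule 29 moved by over 1.5 times, and all 30 did with no minimum. In small classes, such as the 58 epidermal cells at E11.5, depth limits what can be seen.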
